A study of Triticum aestivum and Aegilops tauschii and Triticum carthlicum with 33 samples.

Results

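The 100 probe sets described here departed in opposite directions from the parental RNA mixes in 2 resynthesized hexaploid wheats, XX329 and Allo-960S7. They were chosen by their own values out of 61179 probe sets. For each, the departure was the group mean of a hexaploid minus that of its mix on the log2 scale. Probe sets were eligible where both departures had opposite signs and all 4 group means were at least 5 log2 units, which held for 10206 of the 23315 probe sets above that floor. The 100 with the highest score, the smaller of both departures in size, were taken. In 49 of them XX329 lay above its mix and Allo-960S7 below, and in 51 XX329 lay below its mix and Allo-960S7 above.

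Bread wheat is an allohexaploid that joined the A and B genomes of a tetraploid wheat with the D genome of the goat grass Aegilops tauschii, so most of its genes exist as homoeologous copies that resemble each other closely. A probe set usually reads several of these copies together, and an RNA mix in the genome proportions is the usual stand-in for additive expression. A hexaploid level away from the mix is called non-additive, and one outside the range of both parents transgressive.

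Leaf RNA from chamber-grown plants was measured on Affymetrix arrays, 33 in 11 groups of 3. XX329 was resynthesized with Extracted-tetra as mother and, by the makeup of its mix, TQ18 as the D genome parent. Extracted-tetra is a BBAA tetraploid obtained by crossing a common wheat to a durum line and backcrossing to the wheat, and TQ18 is the Aegilops tauschii line. Allo-960S7 is a newly synthesized wheat at selfed generation 7, and its mix held RNA of Blackbird, a Triticum turgidum of subspecies carthlicum, and of 30A, the other Aegilops tauschii line. Both mixes held 2 parts of tetraploid to 1 part of diploid RNA. The remaining groups were TAA10 (bread wheat, T. aestivum), TTR13 (durum) and TD265 (wild emmer, subspecies dicoccoides). TAA10 was read here as the bread wheat source of Extracted-tetra. Each line is 1 genotype, no generation is given for XX329, and the labels do not say whether an array stands for 1 plant or a pool, or whether the mixes were made from the extracts on the parents' arrays. P values measure the spread between arrays called biological replicates.

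The median of an array was 4.37 to 4.48 log2 units, and folds that reach under it are not given, or are marked as such. Arrays of 1 group correlated with r from 0.979 to 0.996 across probe sets, and none duplicated another. As a check of the tissue, probe sets for the oxygen-evolving proteins PsbO (Ta.841.1.S1_a_at) and PsbP (Ta.85.1.S1_at) read at least 14.2 on all 33 arrays. Of all 31 leaf probe sets, 28 of them for rbcl, 5 read over 13 on every array and 15 stayed under the highest array median throughout. Of the seed list, 10 of the 11 probe sets for seed storage proteins stayed under 5.3. None of the probe sets for leaf, seed, cold, heat or pathogenesis markers was among the 100. The hybridisation controls averaged 9.04 to 9.48 on the 12 arrays of Blackbird, 30A, Allo-960S7 and their mix, and 9.62 to 10.2 on the other 21. Each departure was therefore read within 1 of these sets of arrays. Extracted-tetra against Blackbird and TQ18 against 30A were read across them, where lines and array sets cannot be told apart.

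The departures that chose the probe sets are given here as a description. Over the 49 probe sets with XX329 above, the median departure was 0.92 log2 units in XX329 and −1.14 in Allo-960S7. Over the 51 with XX329 below, it was −0.84 and 1.51. The departure was larger in Allo-960S7 in 74 of the 100, against 62.0% of the 10206 eligible probe sets. XX329 departed by 0.64 to 2.43 in size and Allo-960S7 by 0.64 to 4.71. The last probe sets taken were TaAffx.8264.1.S1_at (0.64 and −0.85) and Ta.6746.1.S1_at (0.64 and −0.64). Just outside lay Ta.1794.1.S1_at (−0.64 and 1.25) and Ta.3281.1.A1_at (−0.87 and 0.64). The scores of these 4 ran from 0.6377 to 0.6407.

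**Figure D1:**
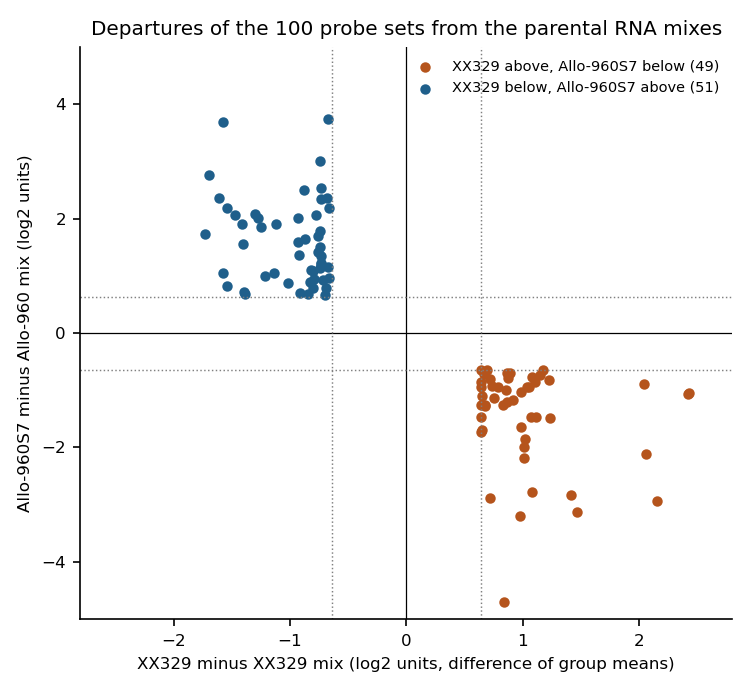
Departure of XX329 (horizontal axis) and of Allo-960S7 (vertical axis) from its own parental RNA mix for each of the 100 probe sets, as differences of group means in log2 units. The dotted lines mark the lowest score taken, 0.64, and the points at 2.42 and 2.43 on the horizontal axis are both probe sets of Ta.28592.

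Among the probe sets with XX329 above and Allo-960S7 below, Ta.8097.1.A1_at had the highest score. It read 8.57, 8.89 and 9.82 in XX329, 6.85, 7.36 and 6.60 in XX329 mix, 5.11, 5.17 and 5.51 in Allo-960S7, and 9.40, 7.34 and 7.84 in Allo-960 mix. Neither hexaploid overlapped its mix. XX329 was 4.45-fold above its mix and Allo-960S7 7.63-fold below. Its mean was high in both Aegilops tauschii lines, 8.40 ± 0.38 in TQ18 and 9.02 ± 1.45 in 30A, and reached 8.13 ± 0.64 in the bread wheat TAA10 (mean ± SD, n = 3 each). The level was 5.61 ± 0.10 in Extracted-tetra, 5.63 ± 0.26 in TTR13 and 5.57 ± 0.14 in TD265, with Blackbird between at 7.05 ± 0.61. Allo-960S7, at 5.26 ± 0.22, thus stood below the levels of Blackbird and 30A and close to those of the lowest tetraploids.

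TaAffx.61466.1.S1_at read 8.47, 9.42 and 8.12 in XX329, 6.79, 7.03 and 6.00 in its mix, 5.20, 5.57 and 5.66 in Allo-960S7, and 7.42, 8.02 and 7.33 in that mix. Both hexaploids lay clear of their mixes, XX329 4.18-fold higher and Allo-960S7 4.33-fold lower. XX329 was above both parents (5.96 ± 0.42 in Extracted-tetra and 7.97 ± 0.24 in TQ18) and Allo-960S7 below both (7.22 ± 0.29 in Blackbird and 8.16 ± 0.32 in 30A). The other probe set of its cluster, TaAffx.61466.2.S1_at, departed by 0.37 and 0.12, not in opposite directions. TaAffx.104812.1.S1_s_at read 8.02, 8.76 and 9.70 in XX329, 7.30, 7.35 and 7.42 in its mix, 7.91, 7.91 and 7.21 in Allo-960S7, and 10.54, 10.82 and 11.04 in that mix. The hexaploids differed less from each other than the mixes did. Ta.1967.1.S1_x_at lay at a higher level: 10.19, 10.81 and 11.68 in XX329, 9.38, 9.60 and 9.44 in its mix, 9.47, 9.61 and 9.03 in Allo-960S7, and 11.99, 12.24 and 12.38 in that mix. In both of these probe sets no array of a hexaploid reached its mix, and the arrays of Blackbird spread widely (SD 1.99 and 1.75, n = 3).

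The next 4 of this direction differed in how tightly the arrays agreed. TaAffx.80911.1.S1_at averaged 11.14 ± 0.33 in XX329, 10.06 ± 0.10 in its mix, 8.23 ± 0.45 in Allo-960S7 and 11.01 ± 0.28 in that mix (n = 3 each). TaAffx.1074.1.S1_at averaged 6.24 ± 0.41, 5.01 ± 0.07, 6.66 ± 0.04 and 8.15 ± 0.37 in the same order. Ta.23013.3.S1_s_at averaged 7.67 ± 0.90, 6.56 ± 0.33, 7.04 ± 0.39 and 8.50 ± 0.47, and 1 XX329 array, at 6.64, lay within the range of its mix. TaAffx.113624.1.S1_s_at was the least settled, since XX329 read 4.92, 7.18 and 7.13 and its mix 6.14, 6.31 and 3.58.

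Ta.28750.1.S1_at held the largest departure of Allo-960S7, 26.1-fold below its mix. Allo-960S7 read 5.81, 5.31 and 6.07 and its mix 9.75, 11.40 and 10.16, close to Blackbird at 10.93 ± 0.83 and far above 30A at 6.20 ± 0.41 (mean ± SD, n = 3). Allo-960S7, at 5.73 ± 0.38, thus lay near its diploid parent. XX329 read 7.06, 7.48 and 5.16 against 5.63, 5.90 and 5.66 in its mix, so that 1 array lay below the mix.

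Among the probe sets with XX329 below and Allo-960S7 above, Ta.521.1.S1_at had the highest score. It read 4.36, 5.90 and 4.78 in XX329, 7.13, 8.14 and 4.96 in XX329 mix, 8.72, 8.40 and 8.03 in Allo-960S7, and 7.27, 5.88 and 6.80 in Allo-960 mix. XX329 overlapped its mix, and Allo-960S7 did not overlap. The means differed 3.32-fold in each hexaploid. This probe set followed the D genome: 8.62 ± 1.30 in TQ18, 8.70 ± 0.87 in 30A and 8.22 ± 0.21 in TAA10, against 2.98 ± 0.38 in Extracted-tetra and 2.61 ± 0.09 in Blackbird (mean ± SD, n = 3 each). Its companion of the same cluster, Ta.521.1.S1_s_at, departed by −1.41 and 1.56.

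Ta.23348.3.A1_x_at read 5.62, 5.78 and 5.14 in XX329, 7.63, 7.82 and 6.16 in its mix, 8.76, 8.14 and 8.62 in Allo-960S7, and 5.72, 5.47 and 6.06 in that mix. Neither hexaploid overlapped its mix, and XX329 came to the level of TQ18 (5.54 ± 0.30) while Extracted-tetra stood at 8.28 ± 0.62 (n = 3 each). Allo-960S7 was above both parents, which averaged 5.78 ± 0.23 in Blackbird and 5.88 ± 0.17 in 30A. In the same cluster, Ta.23348.1.A1_at departed by −0.78 and 2.07 and Ta.23348.1.A1_x_at by −1.09 and 2.15. The brighter probe sets of the cluster did not follow: Ta.23348.3.A1_a_at departed by 0.15 and −0.19 and Ta.23348.2.S1_at by −0.04 and −0.23. Ta.5518.1.S1_at read 7.38, 7.05 and 7.19 in XX329, 8.93, 8.98 and 8.52 in its mix, 10.20, 10.13 and 9.60 in Allo-960S7, and 6.86, 8.02 and 7.96 in that mix. Both hexaploids lay clear of their mixes, and the XX329 arrays spread by only 0.16 (SD, n = 3).

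Ta.23307.3.S1_at had the second largest departure of Allo-960S7 in this direction. It read 5.46, 5.57 and 6.01 in XX329, 7.36, 8.33 and 6.08 in its mix, 9.70, 9.46 and 9.24 in Allo-960S7, and 5.80, 5.91 and 5.61 in that mix. Allo-960S7 was 12.9-fold above its mix, and no other group averaged above 7.83. The XX329 mix was high on 2 of its arrays, and the SD of TQ18 was 1.65 (n = 3).

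The next members of this direction shared a pattern across the lines. Ta.19805.2.S1_a_at averaged 6.99 ± 0.30 in XX329, 8.54 ± 0.41 in its mix, 9.96 ± 0.66 in Allo-960S7 and 7.77 ± 1.03 in that mix (n = 3 each). Ta.24857.2.S1_s_at averaged 5.32 ± 0.70, 6.79 ± 0.42, 7.20 ± 0.70 and 5.15 ± 0.95 in the same order. Ta.19805.2.S1_at, of the same cluster as the former, departed by −1.41 and 1.91. These 3 probe sets were low in TQ18 and 30A (2.75 to 5.17 on average) and in TD265 (2.73 to 4.23), and above 5.3 in Extracted-tetra, Blackbird and TTR13.

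**Figure D2:**
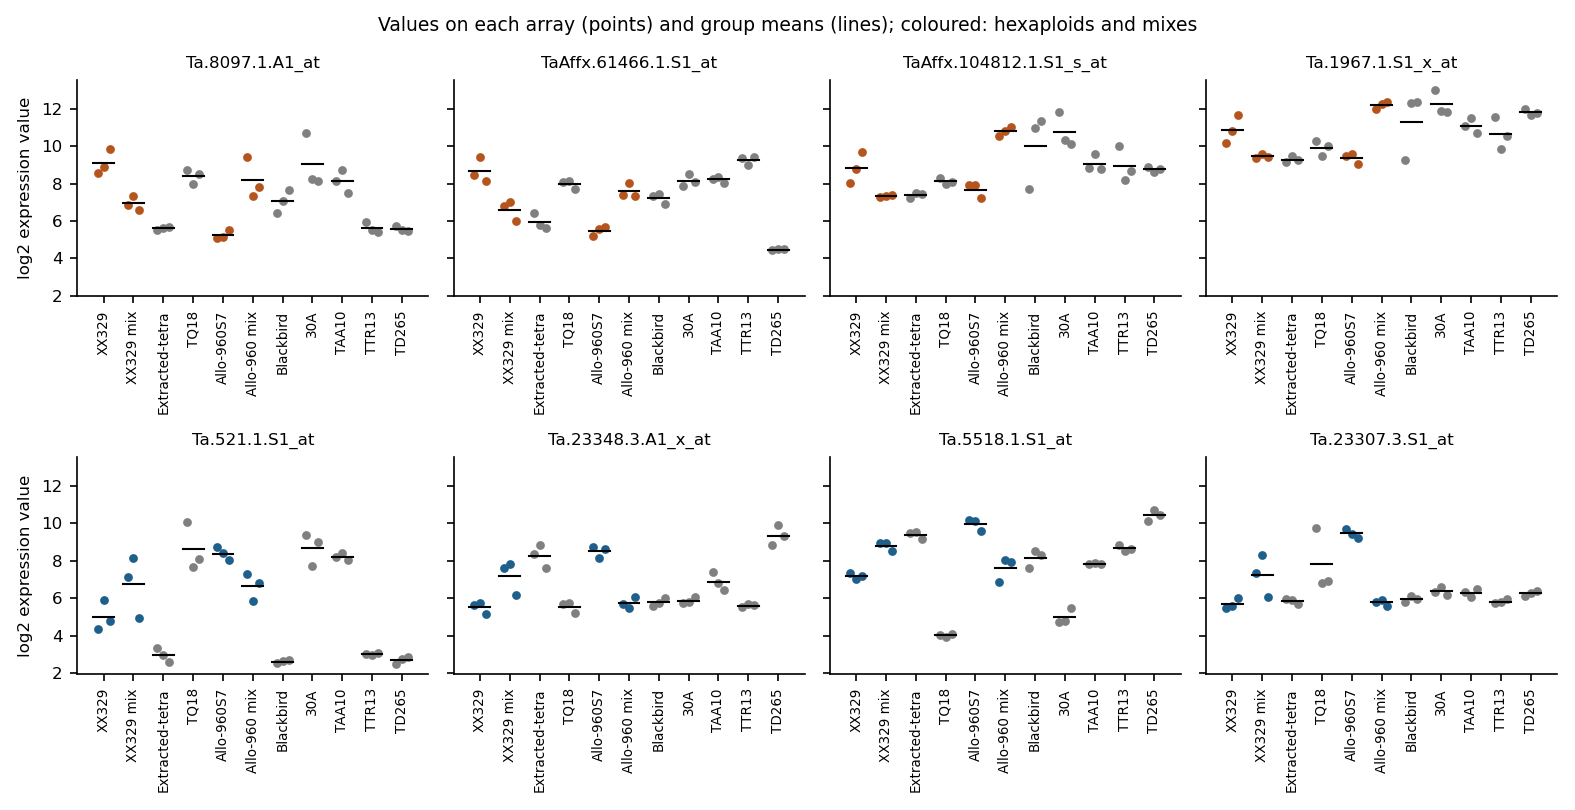
Log2 values of the 4 probe sets with the highest score in each direction on every array of the 11 groups (points), with group means (lines). Hexaploids and mixes are coloured. In Ta.5518.1.S1_at the groups separate cleanly, with XX329 at 7.05 to 7.38 and its mix at 8.52 to 8.98, whereas the XX329 mix of Ta.521.1.S1_at runs from 4.96 to 8.14.

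The platform annotation gave a gene symbol for 4 of the 100, all with XX329 below and Allo-960S7 above, and no role for any of them. LOC778392 (Ta.351.2.S1_x_at) read 7.99, 8.37 and 7.11 in XX329 and 8.79, 8.26 and 8.44 in its mix, which overlapped. It read 9.55, 9.48 and 9.29 in Allo-960S7 against 5.24, 5.61 and 6.22 in that mix, a 13.5-fold difference and the largest of Allo-960S7 in this direction. Its parents averaged 6.38 ± 0.38 in Blackbird and 3.13 ± 0.22 in 30A (n = 3), so Allo-960S7 exceeded both. Of the other probe sets of this gene, Ta.351.1.S1_at departed by −0.18 and 1.12 and Ta.351.3.S1_at by 0.09 and 0.40, so the distance from the mix in Allo-960S7 was larger in the probe set of the x type, whose probes can bind unlike transcripts.

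LOC543137 (Ta.5567.1.S1_at) read 10.30, 9.89 and 9.90 in Allo-960S7 and 7.72, 7.86 and 7.98 in its mix, and 7.89, 7.20 and 7.48 in XX329 against 8.29, 8.36 and 7.91. Both hexaploids lay clear of their mixes, XX329 narrowly, at 7.89 against 7.91 for the nearest arrays. LOC542838 (Ta.10084.1.S1_at) read 10.72, 10.22 and 10.09 in Allo-960S7 and 8.61, 8.31 and 9.02 in its mix, and 9.32, 8.62 and 7.67 in XX329 against 9.38, 9.35 and 9.16. Here XX329 overlapped its mix and Allo-960S7 did not. LOC542799 (Ta.13183.1.S1_s_at) had the smallest departure of Allo-960S7 among the 4, 7.92, 7.62 and 7.90 against 6.77, 7.25 and 7.07, beside 7.17, 6.90 and 6.99 in XX329 and 7.36, 7.95 and 7.81 in its mix. The other probe set of LOC542799, Ta.13183.1.S1_x_at, departed the same way, by −0.66 and 0.43. Of the other probe sets of LOC542838, TaAffx.130064.3.S1_s_at departed by −0.04 and 0.67 and TaAffx.130064.3.S1_x_at by 0.06 and 0.40. The other probe set of LOC543137, TaAffx.58852.1.S1_at, averaged 3.65 to 4.22 in the 4 groups, under the array medians, and is not read here.

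Probe sets whose identifiers share a cluster number were designed on related sequences and are not independent. The 100 came from 86 clusters, of which 14 gave 2 probe sets each, and no cluster held both directions. The members' clusters contained 68 further probe sets, of which 29 had all 4 means at least 5. In 22 of these 29, from 19 clusters, both departures had the signs of the member. Over all 23315 probe sets above the floor, 10206 had opposite signs, in either direction. The count takes signs alone, so it includes probe sets with almost no departure of XX329, such as Ta.21271.1.S1_x_at (−0.0014 and 0.71). Probe sets of the x type made up 22 of the 100 against 17.0% of the eligible probe sets, and those of the s type, common to several transcripts, 12 against 6.56%.

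The hexaploid and its mix did not overlap between arrays in 68 of the 100 for XX329, where the share over all probe sets was 13% (6.7% higher and 6.28% lower), and in 92 for Allo-960S7, where it was 28% (14.6% and 13.3%). Both held in 64, against 1.55% of all probe sets in opposite directions. With limma, 36 of the 100 were called for XX329 (1.88% over all probe sets, 0.94% higher and 0.943% lower) and 78 for Allo-960S7 (8.54%, 3.3% higher and 5.25% lower). Over the eligible probe sets the shares called were 2.9% for XX329 and 13.9% for Allo-960S7. The 36 divided into 20 higher and 16 lower and the 78 into 44 higher and 34 lower. The counts of calls in both hexaploids in opposite directions were 29 of the 100 and 87 overall (0.142%), while 7 were called in XX329 alone, 49 in Allo-960S7 alone and 15 in neither. The rule chose the probe sets on these values, so the counts are no evidence of the departures.

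The chosen probe sets had a wide spread between arrays. The median SD over the 100 was 0.468 in XX329 against 0.186 over all probe sets, 0.260 against 0.156 in its mix, 0.264 against 0.117 in Allo-960S7 and 0.326 against 0.143 in that mix. The 3 XX329 arrays spanned at least 1 log2 unit in 43 of the 100 (5.06% of all probe sets), and the 3 Allo-960S7 arrays in 18 (0.796%). All probe sets include those under the floor of 5, so the spreads compared here are not at like levels. Ta.13161.2.A1_s_at, singled out after its values were seen, had the widest spread in XX329, with arrays at 5.13, 9.48 and 9.30 around its mix at 7.72, 7.38 and 5.77. By array, XX329 lay on its group's side of the mean of the mix in 90, 100 and 95 of the 100 for replicates 1, 2 and 3, with a median departure of 0.68, 1.08 and 1.24. The same counts for Allo-960S7 were 99, 100 and 97, and the medians 1.45, 1.41 and 1.11.

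Arrays that took no part in the choice gave a weaker view of XX329 than of Allo-960S7. The rule was applied again without the 4 arrays of 1 replicate number, and the signs were read in those 4. Of the 100 probe sets chosen without replicate 1, 49 kept the sign of XX329 in the left-out arrays, close to the 47.4% of all eligible probe sets, and their median departure was −0.01 against 1.03 in the arrays that chose them. Without replicates 2 and 3, 83 and 73 kept it, against 58.7% and 54.6%. The sign of Allo-960S7 was kept in 98, 96 and 91, against 69.7%, 69.8% and 72.1%. Both signs were kept in 49, 79 and 65 of the 100, against 31.0%, 39.3% and 38.6%, and the choice was repeated for 56, 64 and 57 of the original probe sets. Of the probe sets that kept the sign of XX329, 49 of 49, 79 of 83 and 65 of 73 kept both.

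**Figure D3:**
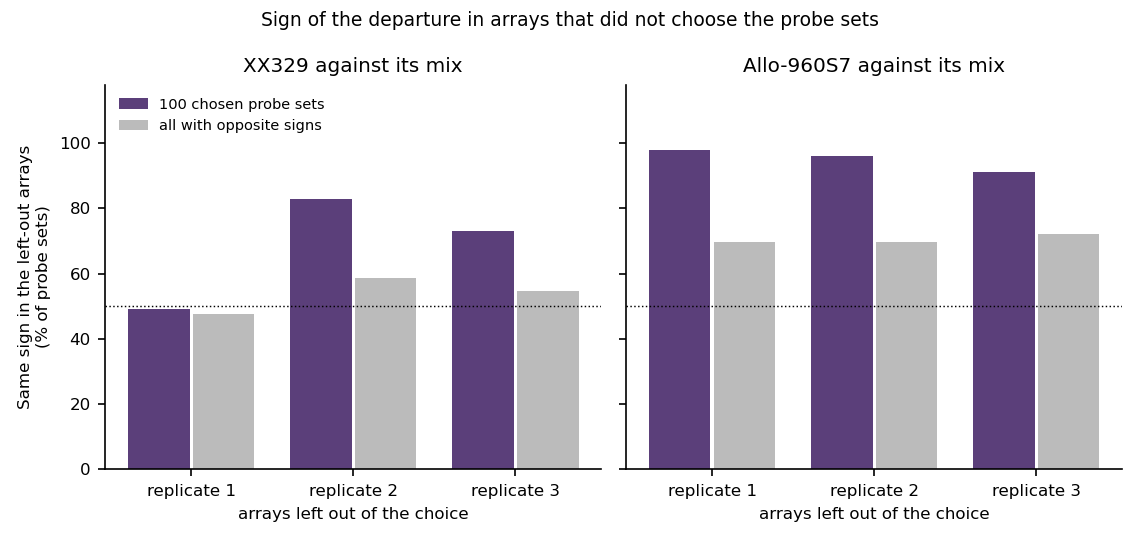
Percent of probe sets whose departure kept its sign in 1 hexaploid array and 1 mix array that were left out of the choice, for XX329 (left) and Allo-960S7 (right). Purple bars stand for the 100 chosen from the other arrays and grey bars for all eligible probe sets, and the dotted line marks 50%. XX329 falls to 49 for replicate 1, while Allo-960S7 stays between 91 and 98.

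The list was also read against the parents, whose arrays did not enter the rule. The mixes, however, contain the parents' RNA, so the direction of a difference between the parents is in part fixed by the choice. XX329 mix was above Allo-960 mix in only 4 of the 49 probe sets with XX329 above and in 48 of the 51 with XX329 below. Extracted-tetra was above Blackbird in 7 of the 49 (median difference −1.28) and in 44 of the 51 (median 1.03), against 47.7% of all probe sets. TQ18 was above 30A in 19 of the 49 and 26 of the 51, against 49.2% of all probe sets. The order of the diploid parents thus divided the directions less than that of the tetraploid parents. Each mix held more tetraploid than diploid RNA, so the choice by itself favours this contrast. The contrast is a description, and no conclusion on the parents is drawn from it.

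From mixes to hexaploids the order was turned around in 80 of the 100. The rule used the same 4 group means, and large opposite departures favour such a turn, so this count is a description and is not set against other probe sets. This held for 34 of the 49 and 46 of the 51. The gap between the hexaploids had a median size of 1.11 against 1.49 between the mixes in the 49, and of 1.66 against 0.81 in the 51. XX329 was above both of its parents in 32 of the 49 and between them in 17, and Allo-960S7 was below both in 18 and between them in 31. In the 51 it was Allo-960S7 that lay outside its parents, above both in 44, while XX329 lay below both in 12 and between them in 39. Among the eligible probe sets XX329 was above both parents in 8.11% and below both in 23.9%, and Allo-960S7 in 13.1% and 28.3%. These positions, too, follow in part from the choice, since the mixes lie near or between the parents. Against mixes calculated from the parents' mean levels, XX329 stayed on the same side in 96 of the 100 and Allo-960S7 in 100, while over all probe sets the physical mixes differed from the calculated ones by a median of −0.11 and −0.12.

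**Figure D4:**
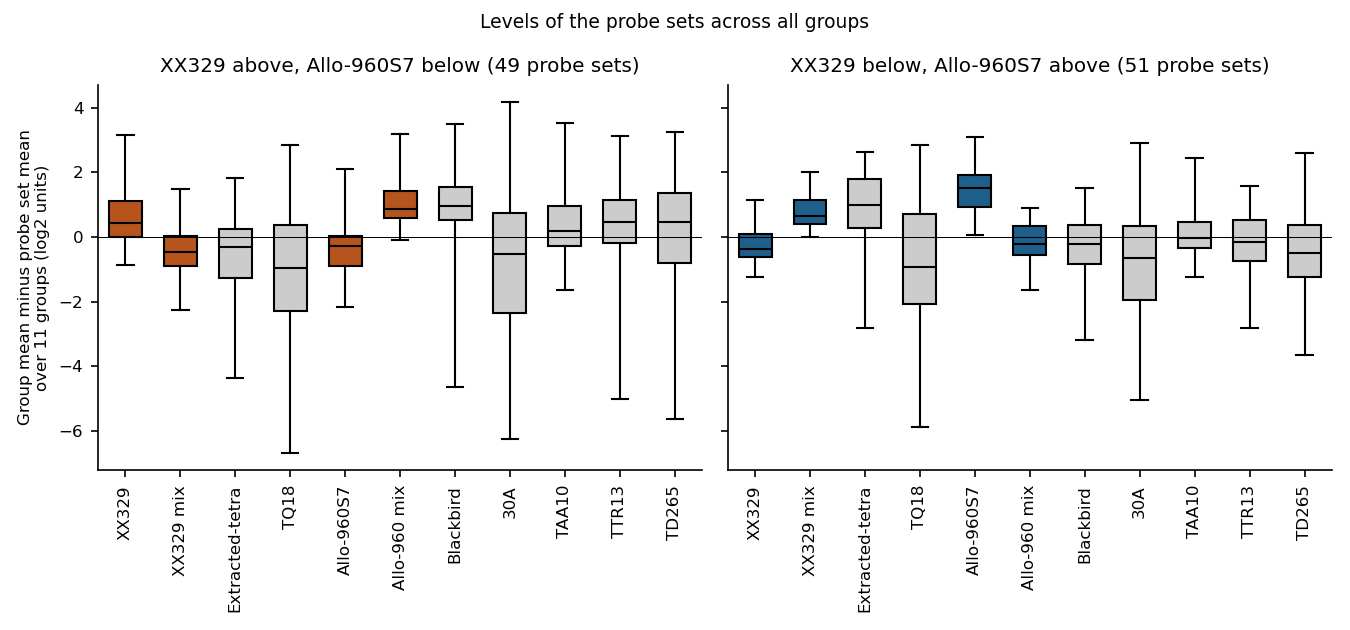
Group means minus the probe set's mean over the 11 groups, in log2 units, for the 49 probe sets with XX329 above (left) and the 51 with XX329 below (right). Boxes give quartiles with the median, whiskers the full range, and coloured boxes are the hexaploids and mixes. Blackbird stands above Extracted-tetra on the left and below it on the right.

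Differences between the parental lines were tested with limma over all probe sets. Extracted-tetra against Blackbird was called in 61 of the 100 (24% of all probe sets tested and 39.3% of the eligible ones). In the 49, 1 was higher and 31 lower in Extracted-tetra, and in the 51, 29 were higher and none lower (12.5% of all were higher and 11.5% lower). Ta.28750.1.S1_at was lower in Extracted-tetra (−6.69 log2 units, SE 0.44, limma adjusted p = 4.53e-13), with Extracted-tetra at 4.24, under the array medians. TaAffx.110724.1.S1_at was lower by 16.8-fold (−4.07, SE 0.38, adjusted p = 1.69e-09). TaAffx.7302.1.S1_at was 9.02-fold higher (3.17, SE 0.31, adjusted p = 4.24e-09) and Ta.21591.1.A1_s_at 7.61-fold higher (2.93, SE 0.35, adjusted p = 1.81e-07). Among these 4, the tetraploid parents differed the way the mixes did. They are the extremes of this comparison, and the mixes consist mostly of the tetraploid parents' RNA, so this is a description only.

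TQ18 against 30A was called in 33 of the 100 (18.5% of all and 25% of the eligible). After centring on the hybridisation controls it was called in 59, with 87.2% of all probe sets called, and a fit of these 2 groups alone called 25 of the 100 and 5780 in place of 11298 overall. Of the 49, 5 were higher and 14 lower in TQ18, and of the 51, 8 were higher and 6 lower (9% of all were higher and 9.47% lower). The lowest were TaAffx.104812.1.S1_s_at (−2.65, SE 0.57, adjusted p = 0.00127) and Ta.28496.1.A1_at (−2.57, SE 0.31, adjusted p = 4.47e-07). The highest were Ta.7963.2.S1_x_at (2.71, SE 0.35, adjusted p = 1.31e-06) and Ta.13760.1.S1_at (1.65, SE 0.31, adjusted p = 0.000236). TaAffx.104812.1.S1_s_at and Ta.28496.1.A1_at belong to the probe sets with XX329 above, as does Ta.7963.2.S1_x_at, while Ta.13760.1.S1_at has XX329 below.

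Within each cross the parents differed more often. Extracted-tetra against TQ18 was called in 85 of the 100 (45.5% of all and 65.5% of the eligible), and Blackbird against 30A in 74 (38.6% and 62.3%). For Extracted-tetra against TQ18 the 49 divided into 22 higher and 18 lower and the 51 into 34 and 11, and for Blackbird against 30A into 31 and 9, and 21 and 13. The background shares were 18.9% higher and 26.5% lower for the former comparison, and 16.5% and 22.2% for the latter. Ta.15067.1.S1_x_at (11.51 in Extracted-tetra and 3.74 in TQ18) and Ta.28496.1.A1_x_at (12.10 and 4.41) were highest in Extracted-tetra, and Ta.1973.1.S1_at (5.13 and 12.12) and Ta.28592.1.S1_at (4.12 and 10.75) lowest. Between Blackbird and 30A, Ta.28496.1.A1_x_at (12.72 and 4.84) and Ta.28273.1.S1_x_at (10.54 and 4.09) were highest, and Ta.28592.1.S1_at (3.84 and 12.57) and Ta.28592.1.S1_x_at (4.36 and 12.77) lowest. The largest adjusted p among these 8 differences was 3.09e-16. In each of these the lower parent lay within 1 log2 unit of the array medians or under them.

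Probe sets for which TQ18 and 30A each exceeded TTR13 and TD265 by at least 2 log2 units, called D-enriched here, numbered 11 of the 100 (5.41% of the eligible), and those as much lower, called BBAA-enriched, 22 (7.75%). Both kinds occurred in both directions, 6 and 5 of the former and 14 and 8 of the latter. Ta.28592.1.S1_at, D-enriched, read 11.58, 11.77 and 11.56 in XX329, 9.23, 9.58 and 8.84 in its mix, 10.76, 10.35 and 10.42 in Allo-960S7, and 11.70, 11.47 and 11.55 in that mix. XX329 was 5.36-fold above its mix and also above TQ18 (10.75 ± 0.31), the TAA10 arrays lying higher still (SD 0.07, n = 3 each). Allo-960S7 was 2.09-fold below its mix and below 30A (12.57 ± 0.06). Its companion Ta.28592.1.S1_x_at departed by 2.43 and −1.06.

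Ta.1973.1.S1_at, also D-enriched, read 11.73, 12.01 and 11.95 in XX329, 10.76 to 11.01 in its mix, 9.12, 9.06 and 9.45 in Allo-960S7, and 12.56, 12.47 and 12.18 in that mix. Here XX329 reached the level of TQ18 (12.12 ± 0.07), whereas Allo-960S7 lay 9.14-fold below its mix and far below 30A (13.17 ± 0.23). Of the BBAA-enriched probe sets, Ta.15067.1.S1_x_at read 10.13, 9.78 and 9.18 in XX329 against 11.08, 11.24 and 10.94 in its mix, and 11.22, 10.94 and 11.25 in Allo-960S7 against 10.21, 10.80 and 10.36. The groups did not overlap in either hexaploid. Ta.1337.1.S1_x_at, BBAA-enriched with XX329 above, averaged 10.14 ± 0.82 in XX329 against 9.42 ± 0.33, which overlapped, and 7.66 ± 0.54 in Allo-960S7 against 10.54 ± 0.47 (n = 3 each).

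The gap between the parents of XX329 differed from that between the parents of Allo-960S7, in an interaction contrast, in 49 of the 100 (15.1% of all and 24.4% of the eligible). Since each gap lies within 1 set of arrays, this contrast takes both differences inside the sets. It was positive in 5 and negative in 16 of the 49, and positive in 26 and negative in 2 of the 51 (8.19% of all positive and 6.93% negative).

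**Figure D5:**
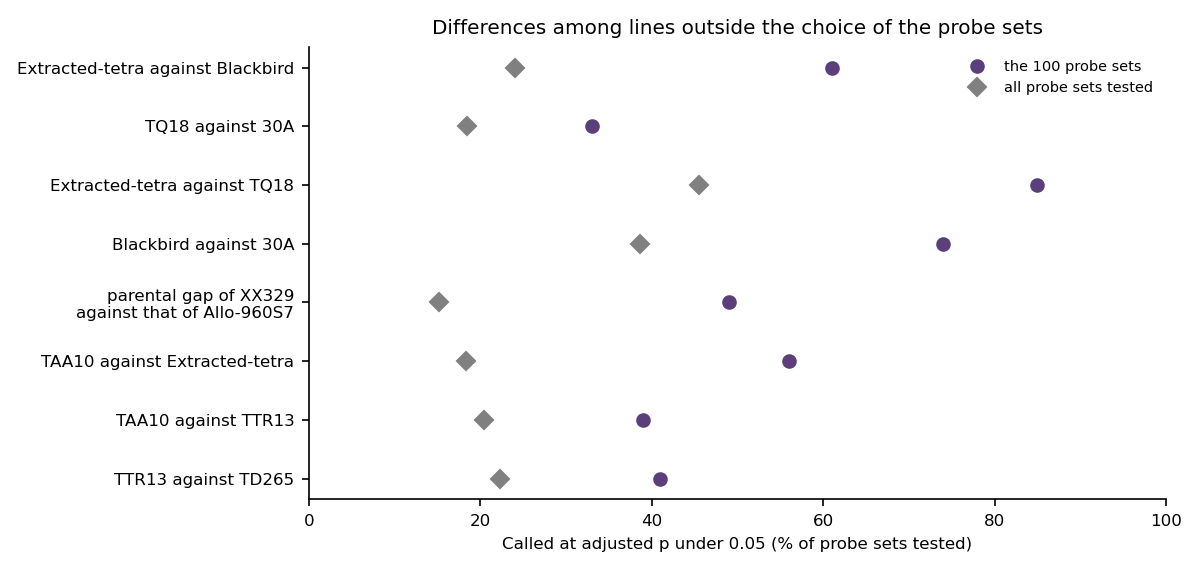
Percent of probe sets called at an adjusted p under 0.05 in each comparison of lines, for the 100 probe sets (circles) and for all 61179 (diamonds). The circle lies right of the diamond in all 8 comparisons, by the least for TQ18 against 30A (33 against 18.5), followed by TAA10 against TTR13 (39 against 20.5).

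TAA10, the bread wheat, was not part of either mix. As the bread wheat source of Extracted-tetra, the mother of XX329, it is not a wheat unrelated to XX329. TAA10 lay on the same side of the calculated mix of Extracted-tetra and TQ18 as XX329 lay of its physical mix in 83 of the 100. The same count over the eligible probe sets is not given here, so the 83 is a description only. In the 49 it was above this mix in 36 (median difference 0.41), and in the 51 it was below in 47 (median −0.76), against 27.6% above over all probe sets and a median of −0.10. The parents stand in both of these mixes, so the measures are not independent. TAA10 lay between the hexaploids in 27 of the 49 and 37 of the 51, and nearer to XX329 than to Allo-960S7 in 33 and 41, that is in 74 of 100 as in 73.4% of the eligible probe sets.

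TAA10 against Extracted-tetra was called in 56 of the 100 (18.3% of all and 31.1% of the eligible). Of the 49, 16 were higher and 2 lower in TAA10, and of the 51, 3 were higher and 35 lower (7.04% of all were higher and 11.3% lower). Both Ta.28592 probe sets were the highest, with Extracted-tetra under the array medians and TAA10 at 12.10 ± 0.12 in the x type (n = 3, largest limma adjusted p = 7.23e-24). Ta.13760.1.S1_at was 5.22-fold lower in TAA10 (−2.39, SE 0.31, adjusted p = 6.38e-07) and Ta.24857.2.S1_s_at 4.17-fold lower (−2.06, SE 0.51, adjusted p = 0.00363). Extracted-tetra also enters the XX329 mix, so these directions share a source with the choice.

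TTR13 and TD265 entered no mix. TAA10 against TTR13 was called in 39 of the 100 (20.5% of all probe sets) and TTR13 against TD265 in 41 (22.3%). Over the eligible probe sets, which share the floor on the level, the shares were 33.2% and 34.8%, so the counts of the 100 stood close to the share among probe sets of like level. Of the 49, 6 were higher and 15 lower in TAA10 than in TTR13, and of the 51, 11 and 7 (8.99% of all were higher and 11.5% lower). TTR13 against TD265 gave 13 higher and 6 lower, and 13 and 9 (11.6% and 10.7% of all). Both Ta.28592 probe sets were again highest in TAA10, while TaAffx.110724.1.S1_at was 8.38-fold lower than in TTR13 (−3.07, SE 0.38, adjusted p = 2.49e-07) and Ta.1337.1.S1_x_at 7.23-fold lower (−2.85, SE 0.36, adjusted p = 2.33e-07).

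The tetraploids themselves differed strongly at some of these probe sets. TaAffx.61466.1.S1_at averaged 9.27 ± 0.22 in TTR13 and 4.47 ± 0.02 in TD265 (n = 3 each, limma adjusted p = 8.64e-15), and TaAffx.100436.1.S1_at 9.88 ± 0.28 and 5.10 ± 0.15 (adjusted p = 5.1e-18). Ta.23348.3.A1_x_at went the other way, at 5.61 ± 0.07 and 9.35 ± 0.53 (adjusted p = 2.24e-10), as did Ta.12590.1.S1_x_at at 4.40 ± 1.26 and 7.89 ± 0.14 (adjusted p = 6.67e-08). The means of TTR13, TD265 and TAA10 spanned at least 1 log2 unit in 55 of the 100, against 20.8% of the eligible probe sets.

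Likeness across lines was read over the 7 groups outside the rule. Closest to Ta.8097.1.A1_at were Ta.13530.2.S1_x_at (r = 0.9956 over 7 group means), Ta.28857.1.S1_x_at (r = 0.9855, on group means of only 2.93 to 3.32, under the array medians) and Ta.25146.1.S1_x_at (r = 0.9843). Closest to Ta.521.1.S1_at were TaAffx.128796.1.S1_at (r = 0.9996), Ta.28784.1.S1_x_at (LOC543254) and Ta.20117.1.S1_at (both r = 0.9995). The points share the contrast between lines with and without the D genome. Leaving Ta.28857.1.S1_x_at aside, their departures from the mixes were smaller than those of the member, 0.38 and −0.01 for TaAffx.128796.1.S1_at and 0.28 and −0.09 for Ta.13530.2.S1_x_at. Ta.28784.1.S1_x_at departed by 0.71 and 0.27, Ta.20117.1.S1_at by 0.43 and 0.18, and Ta.25146.1.S1_x_at by 0.36 and 0.34. In those like Ta.521.1.S1_at, XX329 thus lay above its mix, whereas Ta.521.1.S1_at itself departed by −1.73 in XX329.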

How the data were processed

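Wheat leaf RNA was read on 33 Affymetrix arrays (11 groups, 3 biological replicates each by their labels). The authors deposited 1 log2 value per probe set and array, and RMA and limma are the tools that the submitters' processing notes list. After 111 controls had been set aside from the 61290 probe sets, 61179 were tested. Groups came from the labels. A cell-means model over all arrays was run in limma (3.58.1, R 4.3.3), with 22 residual degrees of freedom, 28.5 in all once moderated, Benjamini-Hochberg adjustment over all probe sets and calls at an adjusted p under 0.05. The fit was tested on simulated data. Arrays have no read depth, so their number sets the precision.

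The probe sets, comparisons and lists were chosen with earlier results of these data known. TAA10 against TTR13, TTR13 against TD265, the shares over eligible probe sets and the alternatives for the departures were added after seeing the data. Named are the 8 probe sets with the highest score per direction, those with a symbol, the 2 highest and 2 lowest called per comparison, those at the edge of the list and 3 like each leading member. Ta.13161.2.A1_s_at was singled out later. The platform annotation gave 1 symbol to 1273 of the probe sets tested and none to 59906. No sequences and no coordinates are printed.

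Replicate numbers were taken as pairs only where every same-numbered correlation of deviations passed 0.1. This held for TQ18 and 30A (r = 0.100 to 0.140); with the replicate as a block 33 of the 100 were called there, as without it. Alternatives were other centring, normalization, filters, fits, floors and calculated mixes, and each array left out.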

Additional observations from a re-analysis of the deposited data

Results flagged for a closer look

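The difference between the parents of XX329 was compared with that between the parents of Allo-960S7 by an interaction contrast in limma, and 49 of the 100 probe sets were called (15.1% of all probe sets). Because the mixes hold the parents' RNA, the choice of the list bears on the direction. The lowest value was that of Ta.28750.1.S1_at, −7.60 log2 units (SE 0.62, adjusted p = 8.15e-11): Extracted-tetra stood at 4.24 and TQ18 at 7.12, while Blackbird stood at 10.93 and 30A at 6.20. TaAffx.110724.1.S1_at followed with −4.38 (SE 0.54, adjusted p = 4.61e-07), from 6.71 and 5.35 in the parents of XX329 and 10.78 and 5.05 in those of Allo-960S7. Here the diploid parents were alike and the tetraploid parents apart.

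The highest values were 3.27 for Ta.4025.1.A1_at (SE 0.38, adjusted p = 1.36e-07) and 3.04 for TaAffx.7302.1.S1_at (SE 0.44, adjusted p = 6.96e-06). Ta.4025.1.A1_at averaged 7.20 in Extracted-tetra and 4.37 in TQ18, against 5.69 in Blackbird and 6.13 in 30A, so that both pairs of parents contributed. TaAffx.7302.1.S1_at averaged 8.70 and 5.12, against 5.53 and 4.99. All 4 were called in each of the 20 settings tried. With 3 arrays a group, single arrays far from the others were not looked for by a rule.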

How the results depend on the processing

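The list itself depended on the processing. Of the 100 probe sets, 60 were chosen again with calculated mixes, 56 with no floor, 66 with a floor of 6 and 62 with group medians, against 91 after quantile normalization, 90 after median centring, 78 without probe sets of the x type and 74 after centring on the hybridisation controls. Leaving out single arrays or replicate numbers kept 56 to 95, with 66 kept without XX329 replicate 1. Read in left-out arrays, both signs held in 49 to 79. Probe sets with arrays clear of both mixes numbered 55 after control centring. With an array left out they numbered 64 to 80, but dropping an array can only keep or raise this count, so it is no check.

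Centring on the hybridisation controls moved TQ18 against 30A to 59 called of the 100, with 87.2% of all probe sets called and 1.08% of these higher in place of 48.7%. This shift follows from the construction, since the controls differ between the array sets. It gave 43342 calls in place of 14710 for Extracted-tetra against Blackbird (4.09% higher in place of 52.2%), 53350 in place of 11298 for TQ18 against 30A and 7311 in place of 11206 for TAA10 against Extracted-tetra. A fit of only TQ18 and 30A called 5780. The higher share also moved for Extracted-tetra against TQ18 (76.1% in place of 41.6%), Blackbird against 30A (57.0% in place of 42.6%), the parental gaps (77.3% in place of 54.2%) and TAA10 against TTR13 (55.6% in place of 43.9%); the cause was not tested.

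With each array left out, the calls among the 100 ran from 56 to 61 for Extracted-tetra against Blackbird, 26 to 30 for TQ18 against 30A, 82 to 86 for Extracted-tetra against TQ18, 73 to 76 for Blackbird against 30A, 44 to 50 for the parental gaps, 42 to 54 for TAA10 against Extracted-tetra, 33 to 43 for TAA10 against TTR13 and 36 to 40 for TTR13 against TD265. With the replicate number as a block the counts, in that order, were 61, 33, 85, 74, 50, 55, 40 and 41. In these settings no count of calls among the 100 moved by over 1.5 times, unlike TQ18 against 30A under control centring. No named difference turned its sign in any setting, whereas the majority of calls over all probe sets turned under control centring as given above. TAA10 stayed on the side of XX329 in 83 to 85 of the 100.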
